A study of Mus musculus with 6 samples.

Results

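Genes of red blood cell production were followed in RNA from sorted natural killer (NK) cells of mouse spleen: the erythroid transcription factor genes Gata1 and Klf1, the carbonic anhydrase genes Car1 and Car2, the erythroid heme synthesis gene Alas2, and the adult globin genes Hba-a1, Hba-a2, Hbb-bs and Hbb-bt. They were taken by name, 9 of 55291 rows of the count table, and 8 of the 9 had enough counts to be tested, Hba-a2 being the exception. The 6 libraries came from 6 mice under steady state conditions, 3 wild type for heat shock factor 1 (HSF1; WT 1, 2 and 3) and 3 with a pair of serine-to-alanine changes in HSF1 (genotype HSF1-S303/7A; S303/7A 5, 6 and 7), which the series describes as enhancing HSF1. HSF1 is the transcription factor that induces heat shock protein genes. The labels give 1 mouse per library, enrichment with DX5 beads and a sort for CD49b-positive, CD3e-negative cells, and no age, strain, batch, or cells in which the change is limited. The question was whether red-cell RNA and erythroid factor RNA in these libraries moved together, and whether either differed between the genotypes.

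Red cells in the making switch on a small set of nuclear factors, of which GATA1 and KLF1 are the best known, and these drive the globin genes, heme synthesis and the red cell membrane. The nucleus is then expelled, so a reticulocyte carries abundant globin RNA while its factor genes are no longer transcribed. GATA1 is also a factor of megakaryocytes, basophils and mast cells, and spleen is a site of red cell production in mice. CD49b, the antigen of the sort, is carried by NK cells and also by platelets and basophils.

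Each WT library held 53845572 to 72736406 counts and each S303/7A library 43189163 to 47248039, so depth differed with genotype. NK genes were abundant in every library. Ncr1, the gene of the NK receptor NKp46, stood at 2138 to 2528 and Itga2, which encodes CD49b, at 248 to 326, while Cd3e was at 5.49 to 14.8 CPM (counts-per-million, scaled between libraries by TMM). Cd3d was at 16.3 to 36.5 CPM and Cd3g at 20.8 to 48.1 CPM. Gata1 and Alas2 are X-linked, and all 6 libraries had Y-linked transcripts (Ddx3y at 81.9 to 128 CPM, Uty at 29.1 to 44.9, Kdm5d at 37.2 to 47.9 and Eif2s3y at 83.7 to 97.8), with at most 19 counts of Xist and 18 of Tsix, and 0 of the 4 tested genes of this check were called. Klrb1c, the gene of the NK receptor NK1.1, fell from 2461 ± 203 (SD, n = 3) to 1689 ± 58.5 CPM in S303/7A. Its log2 fold was -0.54 ± 0.07 (SE), with an edgeR adjusted p of 0.0454. It was the 1 called gene of the 11 in the sort check, of which 8 had a log2 fold above 0 and 3 below. Klrk1, another NK receptor gene, was higher in S303/7A without overlap, at 2117 ± 236 against 1430 ± 66.2 CPM. Its log2 fold was 0.57 ± 0.09 (edgeR adjusted p 0.07). Ncr1 was also higher without overlap (log2 fold 0.14 ± 0.06, edgeR adjusted p 0.518).

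The promoters are shown for Gata1 and Klf1, whose levels did not overlap between the genotypes, and for Hbb-bs and Alas2, a globin and a heme synthesis gene whose levels overlapped between the genotypes. Sequences are from RefSeq on GRCm38.p6 and run from 250 bases before to 50 bases after the annotated start. Capitals mark the GATA motif AGATAA and the KLF1 motif CCACACCC, searched on both strands.
Gata1 (chrX:7967861-7968160, minus strand): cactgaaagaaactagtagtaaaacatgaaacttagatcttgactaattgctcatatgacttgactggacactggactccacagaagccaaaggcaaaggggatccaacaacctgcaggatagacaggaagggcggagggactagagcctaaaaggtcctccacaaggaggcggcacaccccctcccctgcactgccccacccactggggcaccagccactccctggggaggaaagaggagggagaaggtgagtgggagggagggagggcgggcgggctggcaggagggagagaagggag
Klf1 (chr8:84901732-84902031, plus strand): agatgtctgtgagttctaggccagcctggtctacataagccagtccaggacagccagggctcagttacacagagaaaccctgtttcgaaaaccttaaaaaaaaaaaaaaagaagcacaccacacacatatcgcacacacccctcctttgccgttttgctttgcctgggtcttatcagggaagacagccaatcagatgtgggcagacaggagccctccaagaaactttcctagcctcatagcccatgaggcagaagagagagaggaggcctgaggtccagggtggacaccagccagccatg
Hbb-bs (chr7:103827879-103828178, minus strand): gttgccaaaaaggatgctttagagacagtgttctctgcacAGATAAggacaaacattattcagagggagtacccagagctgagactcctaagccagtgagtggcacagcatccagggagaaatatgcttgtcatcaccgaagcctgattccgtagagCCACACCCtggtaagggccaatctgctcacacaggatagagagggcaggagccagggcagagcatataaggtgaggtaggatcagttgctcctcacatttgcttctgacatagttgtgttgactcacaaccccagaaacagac
Alas2 (chrX:150547167-150547466, plus strand): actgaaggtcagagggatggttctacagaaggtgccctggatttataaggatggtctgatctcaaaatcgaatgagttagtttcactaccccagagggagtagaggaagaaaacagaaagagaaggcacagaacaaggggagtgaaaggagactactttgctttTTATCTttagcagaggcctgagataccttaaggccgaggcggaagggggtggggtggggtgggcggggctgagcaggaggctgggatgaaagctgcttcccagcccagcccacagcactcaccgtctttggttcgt
Promoters of 7 of the 9 members matched by symbol, and Car1 and Car2 had no entry. AGATAA was found in the promoters of Hbb-bs, at position -210 from the start, and of Alas2, at -86 on the reverse strand (printed TTATCT), and CCACACCC in that of Hbb-bs alone of the 7, at -93. Among 32851 promoters of this length, 11.2% held AGATAA and 3.56% held CCACACCC. The E box CANNTG, searched on both strands as well, was in 72.3% of promoters and in those of 6 of the 7 members, Alas2 being without it. AGATAA and CCACACCC did not overlap each other in any of the 7. Neither exact string is in the windows of Gata1 and Klf1. The Gata1 window lies inside the annotated span of the gene, 7959260 to 7978071, and the upstream end of that span, at 7978071, was not searched. Other forms of GATA and KLF1 motifs were not searched, so their absence from any window is not shown.

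Globin RNA was nearly absent from all 6 libraries. Gata1 was above the summed globins in each of them, while Klf1 was below that sum in WT 2, S303/7A 6 and S303/7A 7. Together Hba-a1, Hba-a2, Hbb-bs and Hbb-bt had 100, 170 and 86 counts in the WT mice (1, 2 and 3) and 52, 146 and 156 in S303/7A (5, 6 and 7), the order used throughout. As raw CPM, counts over the library total with no TMM scaling, that is 1.596, 3.16 and 1.18 in the WT mice and 1.20, 3.34 and 3.30 in S303/7A, and the exact 95% binomial interval, which covers counting error only, ran from 0.899 to 1.58 in S303/7A 5 and from 2.82 to 3.93 in S303/7A 6. The 2 genotypes overlapped. WT 2, S303/7A 6 and S303/7A 7 were high and the other 3 libraries low, a division that cuts across genotype.

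Gata1, Klf1 and Car1 together had 2120, 1511 and 2444 counts in the WT mice and 793, 638 and 596 in S303/7A, or 33.8, 28.1 and 33.6 against 18.4, 14.6 and 12.6 raw CPM. Every S303/7A library lay below every WT library. These 3 genes were put together with earlier results known, and Car1 encodes an enzyme, so the separation of their sum follows from the choice; Car2 and Alas2, the other non-globin members, overlapped between the genotypes. The bar plot of these shares gives both sums by library.

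**Figure D1:**
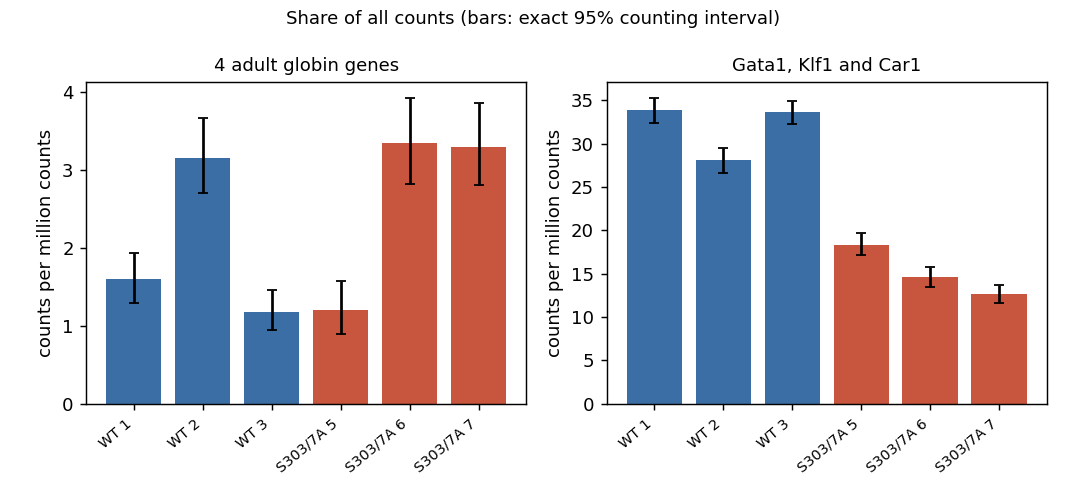
Raw CPM (counts over the library total) for the 4 adult globin genes (left) and for Gata1, Klf1 and Car1 (right) in each library, with exact 95% binomial intervals for counting error. Globins were between 1.18 and 3.34 raw CPM in both genotypes, while the 3 other genes were at 28.1 to 33.8 in WT (blue) and 12.6 to 18.4 in S303/7A (red).

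On a log2 scale (CPM with a prior of 2 counts), the mean of the 4 globins minus the mean of Gata1, Klf1 and Car1 was -5.02, -3.81 and -5.55 in the WT mice and -4.82, -2.57 and -2.57 in S303/7A. Group means were -4.79 ± 0.89 (SD, n = 3) and -3.32 ± 1.30, a difference of 1.47 between S303/7A and WT, and S303/7A 5 lay within the WT range. The globin mean differed by 0.37 with overlap (-1.72 ± 0.64 in the WT mice and -1.35 ± 1.06 in S303/7A). The mean of the 3 other genes differed by -1.10 without overlap (3.08 ± 0.25 and 1.98 ± 0.25). These scores over chosen genes were given no p-value.

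Set per kilobase of exon, which allows levels of different genes to be compared, the order of the means over the 6 libraries was Car2, Car1, Gata1, Klf1, Hba-a1, Hbb-bs, Hbb-bt, Alas2 and Hba-a2. Their levels were 178, 7.92, 4.63, 1.47, 1.26, 1.25, 0.372, 0.299 and 0.0950 CPM per kb. Car2 stood apart from all others, since its lowest library (143 CPM per kb) was above the highest of Car1 (14.8). Other neighbours in this order overlapped: Car1 with Gata1, Gata1 with Klf1 (2.85 to 7.26 and 0.712 to 3.05 CPM per kb), Klf1 with Hba-a1, Hba-a1 with Hbb-bs, Hbb-bs with Hbb-bt, Hbb-bt with Alas2 and Alas2 with Hba-a2. Per kilobase, 98.3% of tested genes with a length lay below the lowest library of Car2, and 44.2% lay below the highest library of Hbb-bs. Gata1 was above each of the 4 globins per kilobase in every library. The place of Klf1 turned with genotype: its mean was 2.14 CPM per kb in the WT mice, above Hba-a1 (1.11) and Hbb-bs (1.02), and 0.809 in S303/7A, below Hba-a1 (1.40) and Hbb-bs (1.47).

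**Figure D2:**
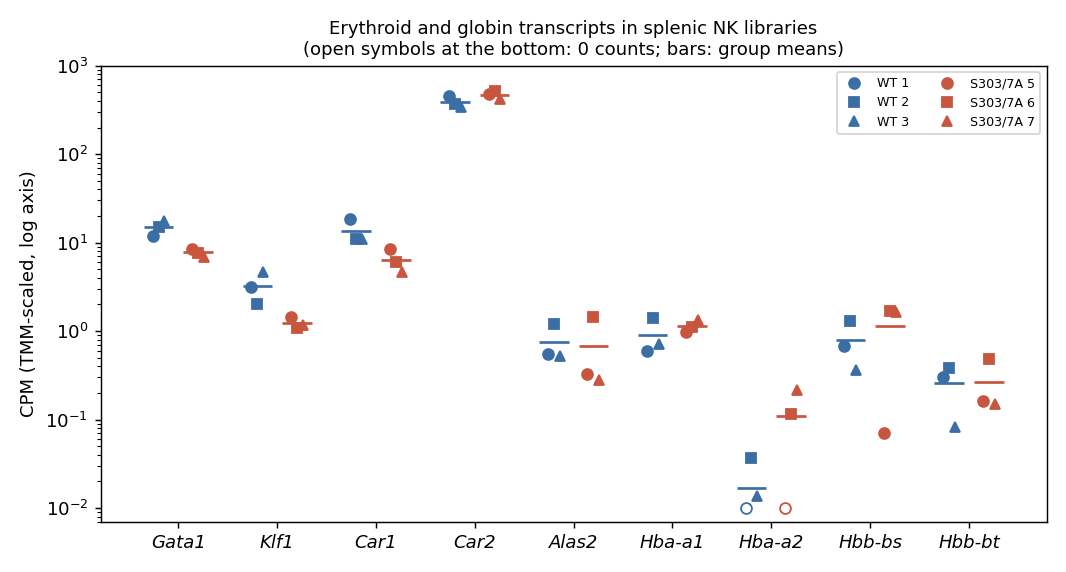
Level of the 9 genes in each library, in TMM-scaled CPM on a log axis, with blue symbols for WT, red for S303/7A, horizontal bars for group means and open symbols for 0 counts. Gata1, Klf1 and Car1 separate by genotype, Car2 lies between 345 and 515 CPM in all libraries, and Alas2 and the globins overlap between the genotypes.

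None of the 8 tested members passed the test over all genes, edgeR's quasi-likelihood test with Benjamini-Hochberg adjustment, in which 0.364% of 16480 genes were called. Gata1, Klf1 and Car1 had an unadjusted p under 0.05, all 3 lower in S303/7A, and 5.47% of all tested genes did so in that direction. The same 3 had no overlap between the genotypes, against 8.37% of all tested genes that were lower without overlap. No member was higher in either way. The median log2 fold of the 8 was -0.04 and that of all tested genes 0.01. DESeq2, the alternative that called most genes (2.17% of 19993), called the same 3, each lower.

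Gata1 (X chromosome, 7959260 to 7978071, GRCm38) encodes a zinc finger factor of the erythroid and megakaryocyte lineages. It was at 12.01, 14.8 and 17.7 CPM in the WT mice and 8.53, 7.72 and 6.95 CPM in S303/7A. The lowest WT library was above the highest S303/7A library. The log2 fold, taken as S303/7A over WT, came to -0.94 ± 0.19 (SE), with an edgeR adjusted p of 0.14 and 0.000726 in DESeq2. Counts behind it were 758 to 1302 per library in the WT mice and 325 to 366 in S303/7A.

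Klf1 (chromosome 8, 84901928 to 84905291) encodes the factor that switches on the adult beta-globin genes. Its levels were 3.14, 2.02 and 4.66 CPM in the WT mice and 1.45, 1.09 and 1.18 CPM in S303/7A. WT varied more among its mice than S303/7A did, and the groups did not overlap. Its log2 fold was -1.40 ± 0.36, with an edgeR adjusted p of 0.258 and 0.0322 in DESeq2.

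Car1 (chromosome 3, 14766216 to 14808368), a cytosolic carbonic anhydrase that speeds the exchange of carbon dioxide and bicarbonate in red cells, was at 18.4, 10.9 and 10.9 CPM in the WT mice and 8.51, 5.98 and 4.62 CPM in S303/7A. WT 1 was the high library of its group. The log2 fold was -1.07 ± 0.30, with an edgeR adjusted p of 0.311 and 0.015 in DESeq2.

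Car2 (chromosome 3, 14886273 to 14900770), the neighbouring gene of the same enzyme family 77.9 kb away, was at 457, 366 and 345 CPM in the WT mice and 480, 515 and 421 CPM in S303/7A. The groups overlapped, and the log2 fold was 0.28 ± 0.12 (edgeR adjusted p 0.532), opposite in sign to that of Car1. Its level put it among the more abundant transcripts of these cells, as no other member was.

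Alas2 (X chromosome, 150547375 to 150570638), the first and rate-limiting enzyme of heme synthesis in erythroid cells, had 35, 65 and 38 counts in the WT mice and 14, 62 and 13 in S303/7A, or 0.554, 1.19 and 0.517 against 0.326, 1.44 and 0.278 CPM. WT 2 and S303/7A 6 were high, 1 library of each genotype. The log2 fold was -0.15 ± 0.74. Of its 2403 exon bases, 311 are also exon of Apex2 on the other strand, and the sources used here do not give the strand setting of the counting, so part of its count is uncertain.

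Most alpha-globin counts were assigned to Hba-a1 (chromosome 11, 32283511 to 32284465). It had 38, 76 and 52 counts in the WT mice and 42, 48 and 62 in S303/7A, which is 0.602, 1.40 and 0.707 against 0.979, 1.11 and 1.33 CPM with overlap (log2 fold 0.34 ± 0.43). Hba-a2 (32296489 to 32297298) had 0, 2 and 1 counts in the WT mice and 0, 5 and 10 in S303/7A. With counts pooled within each genotype, its ratio in raw CPM, S303/7A over WT, was 7.06. The exact 95% interval, from 2.00 to 38.0, covers counting error only and not the spread between mice. Hba-a2 was at 0 in S303/7A 5, as in WT 1, so the genotypes overlapped. Its share of the alpha pair was 0, 2.56% and 1.89% in the WT mice and 0, 9.43% and 13.9% in S303/7A, the last with an exact binomial interval from 6.87% to 24.1%. A count of 0 in WT 1 allows up to 0.0479 raw CPM and in S303/7A 5 up to 0.0695.

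Beta-globin was mostly Hbb-bs in all libraries but S303/7A 5 (chromosome 7, 103826534 to 103828096), with 43, 71 and 27 counts in the WT mice and 3, 72 and 77 in S303/7A. That was 0.681, 1.30 and 0.367 CPM in the WT mice and 0.0699, 1.67 and 1.65 CPM in S303/7A. S303/7A held both the lowest library and the 2 highest, and the log2 fold was 0.53 ± 0.96. Hbb-bt (103812524 to 103813996), the second adult beta-globin gene of this haplotype, had 19, 21 and 6 counts in the WT mice and 7, 21 and 7 in S303/7A (log2 fold 0.06 ± 0.79). Its share of the pair was 30.6%, 22.8% and 18.2% in the WT mice and 70.0%, 22.6% and 8.33% in S303/7A. The high share in S303/7A 5 rests on 10 counts, with an exact binomial interval from 34.8% to 93.3%. Adjusted p for the 3 tested globins was 0.89 to 0.991 in edgeR.

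Counts of paired globin genes are uncertain. The Hba-a1 and Hba-a2 transcripts share 537 of 538 aligned bases, and Hbb-bs and Hbb-bt 575 of 618. Of windows of 50 bases, 32.5% in Hba-a1, 13.1% in Hba-a2, 34.2% in Hbb-bs and 41.7% in Hbb-bt occur in no other gene's transcript of GENCODE release 21 for mouse. The sources used here do not give the read length or whether reads mapping to several places were counted, so the globin levels could be below the true ones. All windows of 50 bases in Gata1, Klf1 and Car2 were their own, as were 85.5% in Car1 and 86.2% in Alas2.

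Other globin genes were at or near 0. Of 12 globin genes in the table, 5 had no count in any library and 3 were tested. Hbb-y, an embryonic beta-like globin, had 8 and 6 counts in WT 1 and WT 3 and 0 elsewhere.

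Genes of the red cell surface also varied by library. Of 21 genes of the red cell membrane and blood groups, 17 were tested and 0 were called by edgeR, with 2 lower at an unadjusted p under 0.05, and the median log2 fold was -0.10. Beside this and the later lists stand all tested genes, of which 5.47% were lower at that p, with a median of 0.01. The 3 most abundant, Cd47, Epb41 and Slc2a1, are expressed widely outside red cells (1112 ± 50.2 CPM in the WT mice and 1041 ± 43.7 in S303/7A for Cd47). The 16 with a mean under 10 CPM summed to 15.95, 17.5 and 12.6 CPM in the WT mice and 8.44, 15.9 and 11.9 in S303/7A, with overlap. Genes named from here to the end of the paragraph were chosen after their values were seen. Slc4a1, the anion exchanger band 3, had 41, 52 and 0 counts in the WT mice and 9, 60 and 1 in S303/7A. Kel, a blood group gene, had 30, 56 and 29 counts and 1, 73 and 13. Both were highest in WT 2 and S303/7A 6, the libraries that were also high for Alas2.

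**Figure D3:**
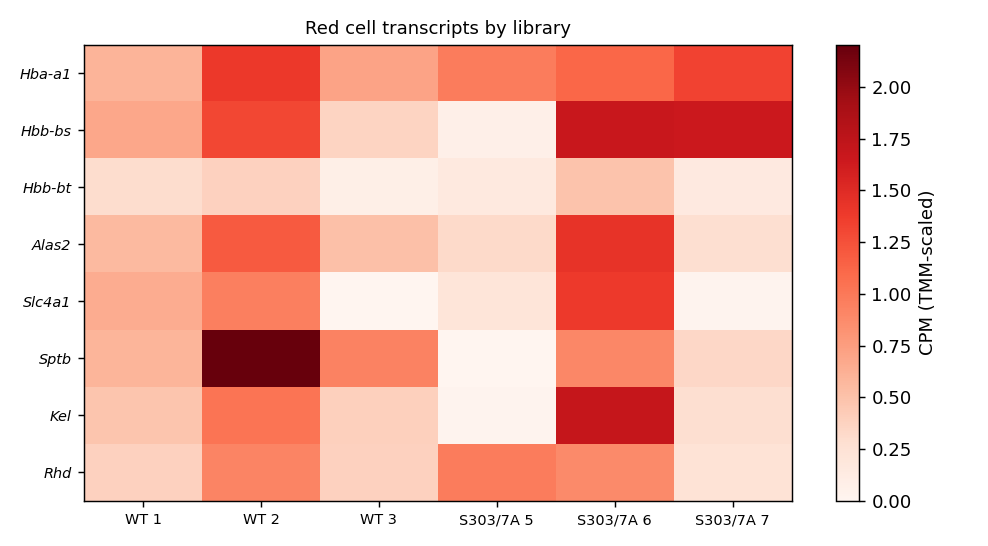
Level in TMM-scaled CPM, as colour, of 3 tested globins, Alas2 and 4 red cell membrane genes (rows) in each library (columns); the membrane genes were chosen after their values were seen. S303/7A 5 and S303/7A 7 are pale for Alas2 and Slc4a1, as WT 3 is for Slc4a1 (0 counts), while S303/7A 7 is among the darkest for Hbb-bs (1.65 CPM).

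Erythroid transcription factor genes split by tool: edgeR called none, while DESeq2 called at least Gata1, Klf1, Nfe2 and Gfi1b. All 17 on the list were tested, Gata1 and Klf1 included. Of these, 12 log2 folds were below 0 and 5 above, with a median of -0.12 and 0 called by edgeR. At an unadjusted p under 0.05, 6 genes were lower, Gata1 and Klf1 among them, and 1 was higher. Of all 16480 tested genes, 902 (5.47%) were lower and 693 higher at that p, with a median of 0.01. The most abundant, Klf3, Zbtb7a and Tcf3, had log2 folds of 0.27 ± 0.45, 0.09 ± 0.10 and -0.02 ± 0.31. Nfe2, the megakaryocyte and erythroid factor p45, and Gfi1b, a transcriptional repressor expressed in both lineages, were chosen after their values were seen. Nfe2 was at 59.1, 64.2 and 60.7 CPM in the WT mice and 35.7, 38.3 and 43.2 in S303/7A, without overlap, with a log2 fold of -0.65 ± 0.10 and an edgeR adjusted p of 0.0726; it passed in DESeq2 (adjusted p 9.14e-05) and in edgeR without the low-count filter (0.0252). Gfi1b was at 8.16, 10.9 and 7.63 CPM and at 2.47, 2.69 and 5.33 CPM, without overlap, with a log2 fold of -1.34 ± 0.33 (edgeR adjusted p 0.241, DESeq2 0.00356). Tal1 and Zfpm1, partners of GATA1 and also named after their values were seen, had log2 folds of -0.10 ± 0.36 and 0.26 ± 0.36. S303/7A 7 was the highest library for Klf3 (503 CPM against 160 to 321 in the others) and Zfpm1 (6.85 against 2.73 to 3.99).

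The receptors and iron uptake list held 13 tested genes, with 0 called by edgeR and a median log2 fold of 0.00. At an unadjusted p under 0.05, 3 were lower and 2 higher, while 5.47% of all tested genes were lower at that p. Its most abundant genes, the ferritin chains Fth1 and Ftl1 and the stem cell factor receptor Kit, had log2 folds of 0.00 ± 0.08, -0.01 ± 0.08 and 0.10 ± 0.38. Of genes chosen after their values were seen, Epor, the erythropoietin receptor, was at 1.65, 2.08 and 1.93 CPM in the WT mice and 0.862, 0.950 and 0.578 in S303/7A. Its log2 fold was -1.24 ± 0.33, and it passed neither in edgeR (adjusted p 0.275) nor in DESeq2 (0.128). Tfr2, a transferrin receptor of liver and erythroid cells, was at 7.73, 6.08 and 5.75 CPM against 1.82, 2.60 and 2.59 (log2 fold -1.48 ± 0.24, edgeR adjusted p 0.0857), and it passed in DESeq2 (adjusted p 2.48e-05) and in edgeR without the low-count filter (0.0379). Tfrc, the main transferrin receptor of dividing cells and erythroblasts and likewise chosen afterwards, had a log2 fold of -0.01 ± 0.28. Slc40a1, also chosen afterwards, was lower without overlap (log2 fold -1.01 ± 0.37, edgeR adjusted p 0.451).

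Heme synthesis did not differ past the threshold. All 12 genes were tested, 0 were called by edgeR, 0 had an unadjusted p under 0.05, 6 log2 folds were above 0 and 6 below, and the median was -0.02. Alas1, the form of the first enzyme used outside erythroid cells and chosen after its values were seen, was at 39.4, 44.0 and 38.6 CPM in the WT mice and 44.4, 39.1 and 39.7 in S303/7A, with Alas2 at 1.44 CPM or less. Alad, Tmem14c and Urod, the most abundant of the list, had log2 folds of -0.06 ± 0.10, 0.32 ± 0.25 and 0.01 ± 0.10. In the list of heme breakdown and sensing, 11 genes were tested and 0 called, with 1 lower at an unadjusted p under 0.05 and a median of 0.00. Eif2ak1, the heme-regulated kinase, was at 157 ± 15.04 CPM in the WT mice and 157 ± 10.47 in S303/7A.

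**Figure D4:**
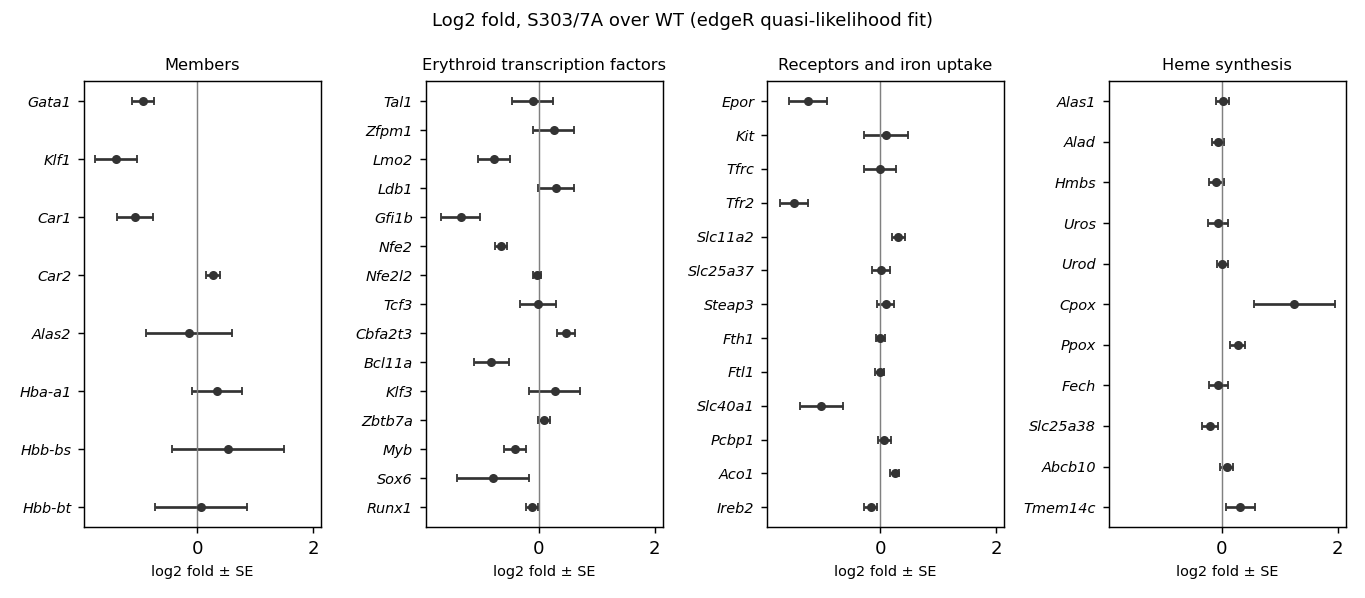
Log2 fold of S303/7A over WT with its SE for the 8 tested members and for the other genes of the transcription factor, receptor and iron uptake, and heme synthesis lists. Gata1, Klf1, Car1, Gfi1b, Epor, Tfr2 and Slc40a1 lie near or below -1, while Alad and Urod lie at -0.06 and 0.01.

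One gene of the late erythroblast and reticulocyte list was called. Of 16 tested genes, Prdx2, an antioxidant enzyme abundant in red cells and present in many others, rose from 62.8 ± 5.24 to 104 ± 7.62 CPM (SD, n = 3 each), with a log2 fold of 0.72 ± 0.10 and an edgeR adjusted p of 0.0462. Its WT libraries were at 65.8, 65.8 and 56.7 CPM and its S303/7A libraries at 95.2, 110 and 106 CPM. The call was lost in each fit that left out 1 library, with adjusted p up to 0.20 in edgeR, while the log2 fold ranged from 0.66 to 0.78. Prdx2 (chromosome 8, 84969587 to 84974834) lies 64.3 kb from Klf1, whose level went the other way, and was the 1 called gene among 33 tested genes within 500 kb of Klf1. The list had 2 genes lower at an unadjusted p under 0.05, and its median log2 fold was -0.13. Among 10 tested carbonic anhydrases 0 were called by edgeR, with Car1 and Car12, named after its values were seen, lower at an unadjusted p under 0.05. DESeq2 called both, Car12 with an adjusted p of 0.000633. Car5b, the mitochondrial form, had a log2 fold of -0.09 ± 0.17.

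Summed markers of basophils and of platelets were lower in the S303/7A libraries along with Gata1, Klf1 and Car1. Of 14 tested basophil markers, edgeR called 1, lower (Ms4a2, a chain of the IgE receptor, log2 fold -0.86 ± 0.12, adjusted p 0.047). In that list 13 log2 folds were below 0, with a median of -1.02, and 10 genes were lower at an unadjusted p under 0.05. Over all tested genes, 5.47% were lower at that p. Il3ra alone went the other way, higher without overlap (log2 fold 0.43 ± 0.19). No basophil marker was at 0 in all libraries. Of 15 tested platelet and megakaryocyte markers, edgeR called 1, lower (Vwf, von Willebrand factor, log2 fold -1.25 ± 0.17, adjusted p 0.047). All 15 log2 folds were below 0, with a median of -0.72, and 11 genes were lower at an unadjusted p under 0.05. Both calls were lost in each fit that left out 1 library, with adjusted p up to 0.202 for Ms4a2 and 0.201 for Vwf in edgeR, while the log2 folds ranged from -0.95 to -0.79 and from -1.38 to -1.10. Ms4a2 also missed the threshold in limma-voom (adjusted p 0.0686). Summed over 13 basophil markers (without Gzmb, which NK cells express), levels were 574, 1078 and 769 CPM in the WT mice and 392, 337 and 466 in S303/7A. Summed over 16 platelet markers they were 489, 499 and 459 CPM and 328, 255 and 292. In bulk RNA, fewer cells of a type and less RNA per cell cannot be told apart.

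Set against these sums, Gata1 overlapped between the genotypes. It was at 2.09, 1.38 and 2.30 CPM per 100 CPM of basophil markers in the WT mice and at 2.18, 2.29 and 1.49 in S303/7A, means of 1.92 ± 0.48 and 1.99 ± 0.43. Per 100 CPM of platelet markers it was at 2.45, 2.98 and 3.86 in the WT mice and 2.60, 3.02 and 2.38 in S303/7A, with overlap. Klf1 and Car1 overlapped as well on both scales. Klf1 was at 0.447 ± 0.227 per 100 CPM of basophil markers in the WT mice and 0.315 ± 0.0586 in S303/7A, and Car1 at 1.88 ± 1.17 and 1.65 ± 0.600. The ratio of group means, S303/7A over WT, was 0.487 for Gata1, Klf1 and Car1 summed, 0.493 for the basophil sum, 0.605 for the platelet sum and 1.35 for the globin sum. These ratios were computed after the values were seen, and what part the other cell types have in the levels of the members was not tested.

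**Figure D5:**
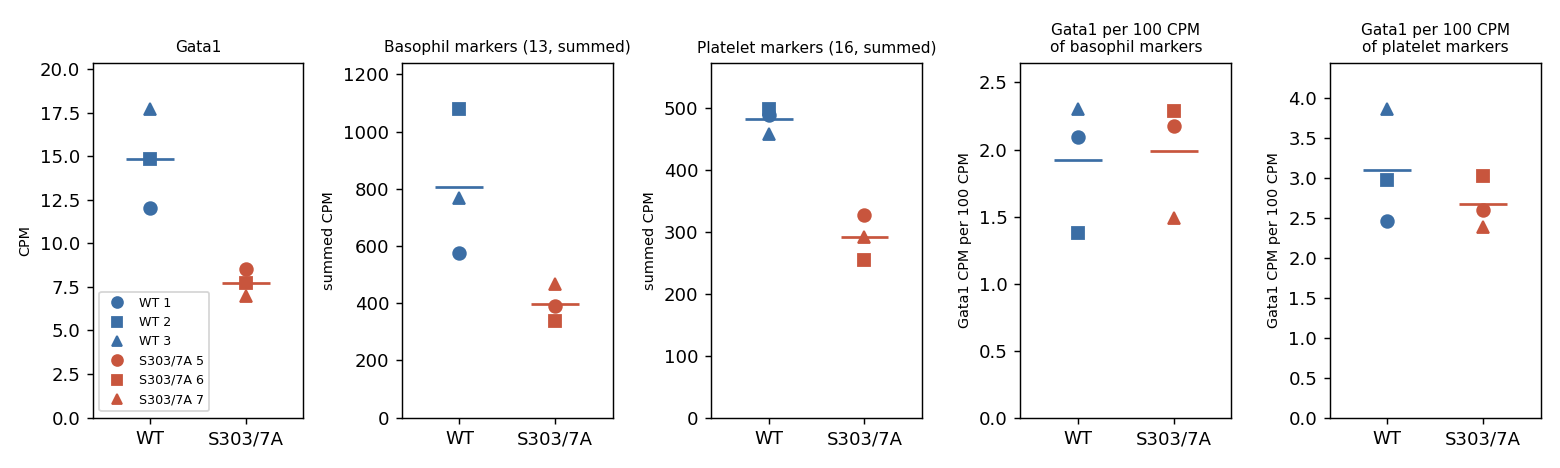
From left to right, Gata1 in CPM, the summed CPM of 13 basophil markers, the summed CPM of 16 platelet and megakaryocyte markers, and Gata1 per 100 CPM of either sum, with 1 symbol per library and bars for group means. Gata1 and both sums are lower in every S303/7A library, while the Gata1 ratios overlap.

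Markers of red pulp macrophages, which take up old red cells, summed to 43.2, 91.0 and 52.0 CPM in the WT mice and 50.1, 37.7 and 66.6 CPM in S303/7A. The genotypes overlapped, 0 of 11 tested genes were called by edgeR, 1 was lower at an unadjusted p under 0.05, and the median was -0.27. Cd163, Hmox1 and Slc40a1 had log2 folds of 0.13 ± 0.19, -0.32 ± 0.26 and -1.01 ± 0.37. Of 10 tested markers of stem cells and early progenitors, edgeR called 1, Slamf1, lower (log2 fold -2.09 ± 0.28, adjusted p 0.047). In that list 4 genes were lower at an unadjusted p under 0.05, against 5.47% of all tested genes, and the median was -0.58. The calls of Prdx2, Ms4a2, Vwf and Slamf1 were each lost in all 6 fits that left out 1 library. The list shares Kit with the receptor list and Gata2 with the basophil list.

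Profiles over the 6 libraries were compared by the root mean square difference of centred log2 CPM. Among the nearest to Gata1, Klf1 and Car1 were Cavin1 (0.12), Plxna3 (0.19), Psmb5 (0.19) and Bcl2l2 (0.20). These 4 were lower in S303/7A without overlap, as the profile itself is, and none was called by edgeR. Nearest to the globins were Xxylt1 (0.11), Trim15 (0.17), Pld4 (0.25), Mex3a (0.27) and Triqk (0.29). Each of these overlapped between the genotypes, and all but Pld4 had group means at or under 1.04 CPM, so that low counts limit the likeness.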

How the data were processed

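RNA-seq counts of 6 libraries, 3 WT and 3 S303/7A, were analysed. Libraries used the SMART-seq HT kit, per the labels' protocols. The tools named in the submitters' processing notes are Trimmomatic, STAR, featureCounts and DESeq2, with the builds mm10 and GRCm38. Tool versions, annotation, read length and strand setting: not given in the sources used here. Raw counts per gene symbol, as the authors deposited them, were used as they stand.

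Counts were fitted in R 4.3.3 with edgeR 4.0.16: filterByExpr (minimum count 10, minimum total 15), TMM factors and the quasi-likelihood test over 16480 genes, with Benjamini-Hochberg adjustment and a threshold of 0.05. Standard errors are Wald-type, from that fit. DESeq2 1.42.0 and limma-voom (limma 3.58.1) were alternatives. The code was tested on simulated data. No p-value was adjusted over the members or a list. The p-values measure the spread between 3 mice per genotype.

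Coordinates and exon lengths are from GENCODE release 21 for mouse (GRCm38), in which 97.6% of tested genes matched 1 gene. Promoters are RefSeq's. The members and 14 lists were chosen with earlier results of these data known. Named are all members, in each list the called genes or else the 3 most abundant, the sample check genes, and the 5 nearest profiles; others are said to have been chosen after their values were seen. Some genes that this rule names are not reported here.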

Additional observations from a re-analysis of the deposited data

How the results depend on the processing

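The 60 calls over all genes became 434 in DESeq2, 38 in limma-voom and 171 without the low-count filter, and ranged from 5 to 57 when 1 library was left out (WT 1, 2 or 3: 27, 5 or 21 calls; S303/7A 5, 6 or 7: 31, 57 or 30). The members called, 0, became 3 in DESeq2 (Gata1, Klf1 and Car1), and stayed at 0 in the other 14 alternatives. Calls among the other genes of the pathway and cell type lists, 4, became 23 in DESeq2, 2 in limma-voom and 16 without the filter, and ranged from 0 to 1 with a library left out. Gata1, Klf1 and Car1 kept a log2 fold below 0 in all 15 alternatives, from -1.08 to -0.80, -1.66 to -1.06 and -1.34 to -0.78. Alas2 ranged from -1.31 to 0.33 with a library left out, and Hbb-bt from -0.70 to 0.46. Hbb-bs was -0.0837 in limma-voom. The cause was not tested. The globins minus Gata1, Klf1 and Car1, 1.47, ranged from 1.06 with Car2 and Alas2 added to 2.22 without S303/7A 5. The difference in globin share, 0.638 raw CPM, ranged from 0.240 without WT 3 to 1.34 without S303/7A 5; the alternatives on prior count and on factor genes could not apply to it and were not run. At a minimum count of 50, Alas2 and Hbb-bt were not tested; low counts limit both, and Hba-a2. No paired analysis was possible because the genotypes share no replicate number.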

Other observations

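A few genes of the lists are described further here. They were chosen after their values were seen. Car12, a membrane-bound carbonic anhydrase, had 97, 58 and 93 counts in the WT mice and 5, 4 and 12 in S303/7A. Its log2 fold of -3.03 ± 0.51 (SE) did not pass over all genes (edgeR adjusted p 0.101) and passed in DESeq2 (0.000633) and without the low-count filter (0.0474), while it did not pass in any of the 6 fits that left out 1 library, with adjusted p over all alternatives from 0.000633 to 0.309.

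S303/7A 7 was the highest library for several list genes. Cpox, a late enzyme of heme synthesis, was at 26.2 CPM in that library and at 3.40 to 6.57 CPM in the other five. Cited4, a transcriptional co-activator on the late erythroblast list, was at 43.5 CPM there and at 2.22 to 7.37 CPM in the other five. Ldb1, a cofactor of the GATA1 complex, was at 31.9 CPM there and at 13.2 to 18.8 CPM in the other five, and Eomes, an NK transcription factor gene, at 716 against 140 to 476 CPM. Alas2 in the same library was at 0.278 CPM, the lowest of the 6.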
